A study of Homo sapiens with 6 samples.

Results

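Mitosis and chromosome segregation genes were followed by ribosome profiling in K562 cells depleted of N6AMT1. The set was a list of 44 gene symbols covering the CDK1 engine, spindle kinases, the chromosomal passenger complex, the spindle checkpoint, the securin and separase route, centromere and kinetochore proteins, spindle motors, condensin, topoisomerase and FOXM1. Members were taken by symbol from the table of footprint counts, which gave 43 of its 19330 genes. SPC24 was not analysed here. UBE2C, the ubiquitin-conjugating enzyme of the anaphase-promoting complex, was listed at 0 counts in all 6 libraries, which allows up to 3 counts a library from counting error alone. CDC20, of the same route, had 690 to 1213 counts a library. Whether reads of UBE2C could be assigned to its listed transcript was not tested, so the 0 is not read as a lack of translation. The remaining 42 members had enough counts to be tested, and together the members found held 108042 counts.

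K562 is a human chronic myelogenous leukemia cell line with erythroid features. Cells received a lentiviral CRISPR/Cas9 vector whose guide RNA was directed against N6AMT1 (sgN6AMT1) or, as a control (sgCtrl), against olfactory receptor genes that the labels name OR11A1 and OR2M49, were selected with puromycin for 48 h, and were collected 10 days post infection. Per the study's methods, the 3 libraries of each group came from independent lentiviral transductions, and no cloning step is described. The labels do not tell the control guides apart by library, and the study's methods write the second gene as OR2M4 and also list a guide against EGFP among the controls. The methods also describe guides against N6AMT1 in the plural, without saying which of them each sgN6AMT1 library carried.

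Ribosome profiling (Ribo-Seq) sequences the pieces of mRNA that ribosomes protect from RNase I, so footprints on a coding sequence (CDS) count the ribosomes found there. A footprint count depends on how much mRNA there is and on how heavily it is translated, and RNA sequencing was not used here. Library totals ranged from 1821356 to 2969736 counts. Levels are given as CPM, a count scaled to a common library total after trimmed-mean (TMM) normalization, and changes as log2 fold changes of sgN6AMT1 over sgCtrl. Unless stated otherwise, tests are edgeR's quasi-likelihood F test 2-sided, with p adjusted by Benjamini and Hochberg's method over 9202 genes and a threshold of 0.05. N6AMT1 itself (chr21:28872191-28885371, minus strand) had 12.6, 8.27 and 16.8 CPM in sgCtrl and 4.38, 3.89 and 4.34 CPM in sgN6AMT1. It fell by 1.51 on the log2 scale (SE 0.313, adjusted p = 6.69e-05), with no overlap between the groups.

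In mitosis, CDK1 bound to a cyclin phosphorylates many proteins to drive cells into division. Condensin and topoisomerase II compact and disentangle the chromosomes, and kinetochores built on the centromeres attach them to spindle microtubules. The spindle checkpoint holds back the anaphase-promoting complex (APC/C) until attachment is complete. APC/C with its activator CDC20 then marks securin and cyclin B for destruction, which frees separase to cut the cohesin that joins sister chromatids. Most of these genes are transcribed in a burst before division, so their levels also follow the share of cells in that phase. N6AMT1, with its partner TRMT112, methylates eRF1, the factor that reads stop codons and releases the finished protein.

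Because eRF1 acts at stop codons, the end of the CDS is printed for the members past the threshold that had an annotated CDS. Each shows 21 bases, the last codons and then the stop codon in capitals, 5′ to 3′ on the coding strand, from GRCh38 with GENCODE release 44 transcripts. All of them lie within a single coding exon.
CDK1, chr10:60793955-60793975, plus strand: aatcagattaagaagatgTAG
CDC25B, chr20:3804941-3804961, plus strand: agccggctgcaggaccagTGA
BIRC5, chr17:78223534-78223554, plus strand: cagctggctgccatggatTGA
PTTG1, chr5:160428661-160428681, plus strand: tgctgtgacatagatattTAA
ESPL1, chr12:53293454-53293474, plus strand: ttgcctgtctctctgcggTAA
BUB1, chr2:110637964-110637984, minus strand: tgtaagcgttcacgaaaaTAA
CENPE, chr4:103106222-103106242, minus strand: cctgagtgcaaaactcagTAG
CENPF, chr1:214663774-214663794, plus strand: gagaactgtaaggtccagTGA
SMC2, chr9:104139295-104139315, plus strand: ggagcacatgtggaagttTAA
NCAPD2, chr12:6531392-6531412, plus strand: gctcgcaggcacagatccTAG
NCAPG, chr4:17843405-17843425, plus strand: ctcaatgaagatctaagtTAG
TOP2A, chr17:40389519-40389539, minus strand: gatgaagatgatctgtttTAA

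The mitosis genes changed in both directions and by small amounts. In sgN6AMT1 cells, footprints fell on 8 members (ESPL1, CENPE, NCAPD2, TOP2A, SMC2, CENPF, BUB1 and NCAPG) and rose on 5 (CDC25B, PTTG1, CDK1, BIRC5 and CCNA2). The 13 members past the threshold were 31.0% of the 42 tested, beside 26.9% of all genes tested. The 8 lower members were 19.0% of those tested against 13.9% of all genes, and the 5 higher ones 11.9% against 12.9%. These shares lie near the background. Of the 2473 genes past the threshold 51.8% were lower, and with total counts as the scale 38.5% of 2536, while 7 members were then lower and 6 higher. The median log2 fold change was -0.04 over the members and 0.006 over all genes, and the members ranged from -0.47 to 0.49. The median absolute log2 fold change was 0.114 for the members and 0.209 for all genes. It was under 0.25 for 32 of the 42 members and for 5309 of the 9202 genes. The lowest mean level of a tested member was 18.0 CPM, and all genes tested include genes below that. These values were not matched for level, so they do not show that the members changed less than genes of like counts. At an unadjusted p of 0.05, 17 members passed, but the share of all genes at that limit was not counted. This count therefore has no background to be read against. DESeq2 called 8 members, 6 of them lower and 2 higher, beside 12.4% of all the genes it tested.

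As a whole, the mitosis genes held a share of the footprints that differed between the groups by less than the spread between libraries. Their summed share of all counts was 0.792%, 0.824% and 0.791% in sgCtrl and 0.819%, 0.81% and 0.777% in sgN6AMT1. The means were 0.802% ± 0.0187 and 0.802% ± 0.0222 (SD, n = 3), and the libraries overlapped. In these bulk samples, a change in the share of cells in mitosis and a change in footprints per mitotic cell cannot be told apart. Footprints of the sgCtrl and sgN6AMT1 libraries had no overlap for 13 members (31.0%), beside 37.5% of all genes tested. Of these, 11 passed the threshold. CCNB1 and NUF2 were separated without passing it, whereas CCNA2 and NCAPG passed it with overlapping groups.

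**Figure D1:**
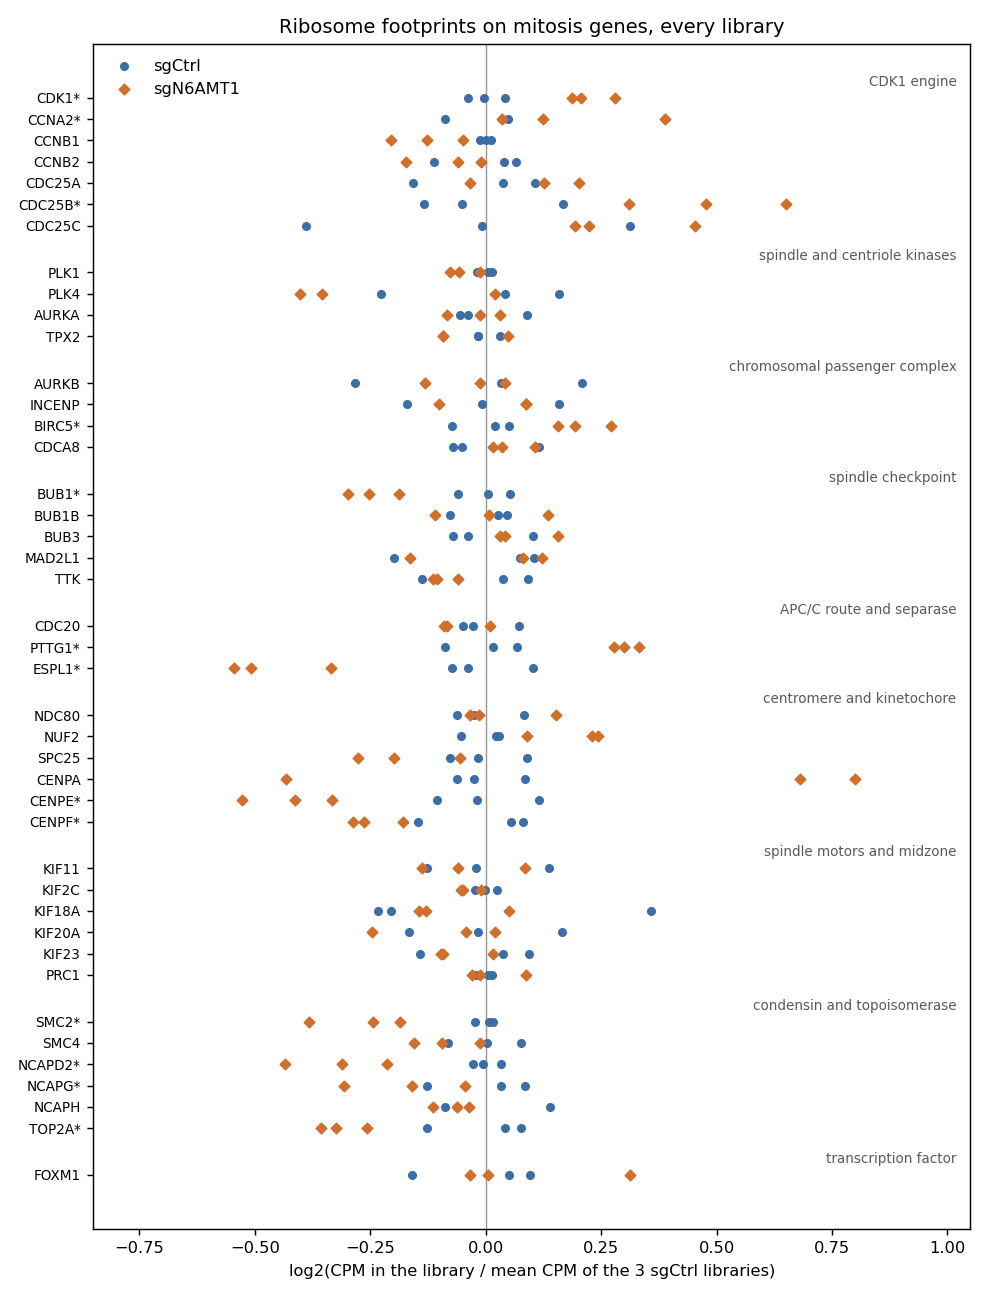
Footprint level of each tested mitosis gene in every library, as the log2 ratio of its CPM to the mean CPM of the 3 sgCtrl libraries, in blocks by role. Blue circles are sgCtrl and orange diamonds sgN6AMT1 libraries, and an asterisk marks the 13 genes past the adjusted threshold. The sgN6AMT1 points of the condensin and topoisomerase block lie to the left of 0, and those of the spindle motors scatter around it.

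Footprints rose on 3 of the 7 members of the CDK1 engine and fell on none, where 12.9% of all genes were higher and 13.9% lower. DESeq2 called CDK1 but neither of the other two, CDC25B (adjusted p = 0.0819) and CCNA2 (0.26). CDK1, the kinase that drives entry into mitosis (chr10:60778493-60794828, plus strand), had 449, 475 and 460 CPM in sgCtrl and 560, 532 and 525 CPM in sgN6AMT1. Every sgN6AMT1 library was above every sgCtrl library. The means were 461 ± 13.1 and 539 ± 18.3 CPM (SD, n = 3), a log2 fold change of 0.22 (SE 0.054, 95% interval 0.12 to 0.33, adjusted p = 0.000696). CDC25B (chr20:3796310-3806115, plus strand), a phosphatase that activates CDK1, had 37.7, 32.4 and 30.6 CPM in sgCtrl and 41.6, 52.7 and 46.7 CPM in sgN6AMT1. The groups did not overlap, but the counts behind these values were low, from 62 to 122 a library. CDC25B rose by 0.49 on the log2 scale (SE 0.133, adjusted p = 0.00252), the largest rise among the members. Without sgN6AMT1 replicate 2 the value was 0.40, with an adjusted p of 0.0576 in edgeR.

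CCNA2, the cyclin that binds CDK1 before cyclin B does, had 189, 206 and 208 CPM in sgCtrl and 263, 219 and 206 CPM in sgN6AMT1. The highest sgN6AMT1 library stood apart from the other two, which lay at or near the sgCtrl range. The log2 fold change was 0.19 (SE 0.071, adjusted p = 0.0327). It was 0.08 (adjusted p = 0.515 in edgeR) without sgN6AMT1 replicate 1, 0.15 (0.144) without sgCtrl replicate 1 and 0.21 (0.0641) without sgCtrl replicate 2.

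CCNB1, the main mitotic cyclin and an APC/C target (chr5:69167150-69178245, plus strand), went the other way from its kinase. It had 612, 622 and 617 CPM in sgCtrl and 596, 565 and 535 CPM in sgN6AMT1, so that all sgN6AMT1 libraries lay below all sgCtrl libraries. The log2 fold change of -0.13 (SE 0.052, 95% interval -0.23 to -0.02) did not pass the adjusted threshold (adjusted p = 0.0648). In edgeR it passed without sgN6AMT1 replicate 1 (-0.17, adjusted p = 0.0193) and with the trends of fold change on CDS length and GC content removed (-0.11, 0.037). It was -0.09 (adjusted p = 0.244) without sgN6AMT1 replicate 3 and -0.07 (0.339) with total counts as the scale. The CDK1 to CCNB1 ratio of CPM was 0.734, 0.763 and 0.745 in sgCtrl and 0.939, 0.943 and 0.982 in sgN6AMT1. Its mean went from 0.748 ± 0.0149 to 0.954 ± 0.0237 (SD, n = 3). This ratio was chosen after its values were seen and was not tested.

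The other members of the group did not pass the threshold. The second B-type cyclin, CCNB2, had a log2 fold change of -0.08 (adjusted p = 0.429), and the phosphatase CDC25A one of 0.12 (0.426). CDC25C, the third phosphatase of the family, had 0.30 (adjusted p = 0.0889). In edgeR CDC25C was 0.45 (adjusted p = 0.017) without sgCtrl replicate 3, 0.16 (0.464) without sgCtrl replicate 1 and 0.35 (0.0385) with total counts as the scale. On a scale of CPM per kilobase of CDS, which allows levels of different genes to be compared, CDK1 was at 516 ± 14.6 and CCNB1 at 474 ± 4.03 in sgCtrl. In sgN6AMT1 they were at 603 ± 20.5 and 434 ± 23.6.

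Securin and separase moved in opposite directions. PTTG1, the securin that keeps separase inactive until anaphase (chr5:160421910-160428739, plus strand), had 201, 224 and 216 CPM in sgCtrl and 263, 269 and 259 CPM in sgN6AMT1. ESPL1, the separase that cleaves cohesin (chr12:53268299-53293638, plus strand), had 103, 93.4 and 91.2 CPM in sgCtrl and 65.7, 67.4 and 76.0 CPM in sgN6AMT1. In neither gene did the groups overlap. PTTG1 rose by 0.30 on the log2 scale (SE 0.065, 95% interval 0.17 to 0.43, adjusted p = 0.000145). ESPL1 fell by 0.47 (SE 0.103, adjusted p = 0.000209), the largest fall among the members.

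The PTTG1 to ESPL1 ratio of CPM was 1.94, 2.39 and 2.37 in sgCtrl and 4.01, 3.99 and 3.41 in sgN6AMT1. Its mean went from 2.24 ± 0.256 to 3.8 ± 0.338 (SD, n = 3). The ratio was chosen after its values were seen and was not tested. Per kilobase of CDS, PTTG1 was at 351 ± 19.1 CPM in sgCtrl and 434 ± 7.98 in sgN6AMT1, and ESPL1 at 15.1 ± 1.03 and 11.0 ± 0.865. PTTG2, a near-identical copy of PTTG1 on chromosome 4, could share its reads. PTTG2 counts were 17, 30 and 18 in sgCtrl libraries, then 28, 25 and 18 in sgN6AMT1 libraries, beside 400 to 649 for PTTG1. CDC20, the APC/C activator that starts the destruction of securin, had a log2 fold change of -0.06 (adjusted p = 0.504).

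**Figure D2:**
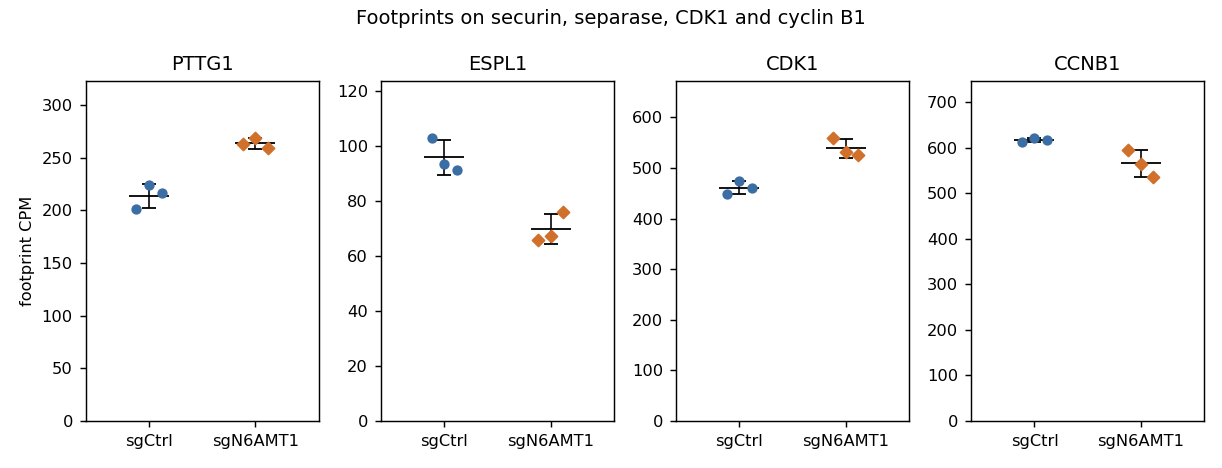
Footprint CPM of securin (PTTG1), separase (ESPL1), CDK1 and cyclin B1 (CCNB1), with 1 point per library and the mean ± SD of 3 libraries as bars. The sgN6AMT1 libraries lie above all sgCtrl libraries for PTTG1 and CDK1 and below them for ESPL1 and CCNB1, where the CCNB1 difference had an adjusted p of 0.0648.

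Footprints fell on 4 of the 6 condensin and topoisomerase members and rose on none, where 13.9% of all genes were lower, and the median log2 fold change was -0.22. TOP2A and NCAPD2 passed in all 15 alternative settings, while SMC2 passed in 12 and NCAPG in 4. TOP2A, the topoisomerase that untangles sister DNA (chr17:40388525-40417896, minus strand), had 709, 726 and 631 CPM in sgCtrl and 576, 538 and 550 CPM in sgN6AMT1. The lowest sgCtrl library was still above the highest sgN6AMT1 library. TOP2A fell by 0.31 (SE 0.053, adjusted p = 1.11e-06), from 689 ± 50.7 to 555 ± 19.3 CPM (SD, n = 3), and had the smallest adjusted p of all members.

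NCAPD2, a HEAT-repeat subunit of condensin I (chr12:6494102-6531955, plus strand), had 216, 207 and 210 CPM in sgCtrl and 156, 170 and 182 CPM in sgN6AMT1. It fell by 0.32 (SE 0.071, adjusted p = 0.00023), with no overlap. SMC2, an ATPase shared by both condensin complexes (chr9:104094260-104141409, plus strand), had 144, 141 and 145 CPM in sgCtrl and 126, 121 and 110 CPM in sgN6AMT1. Here too all sgN6AMT1 libraries lay below all sgCtrl libraries. SMC2 fell by 0.27 (SE 0.083, adjusted p = 0.00896). It did not pass in edgeR without sgN6AMT1 replicate 3 (-0.22, adjusted p = 0.0533) or with the length and GC trends removed (-0.17, 0.0778), nor in DESeq2 (-0.28, 0.0673).

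NCAPG, the other HEAT-repeat subunit of condensin I (chr4:17810979-17844865, plus strand), had 272, 315 and 304 CPM in sgCtrl and 288, 266 and 240 CPM in sgN6AMT1. The groups overlapped. NCAPG fell by 0.17 (SE 0.065, adjusted p = 0.0443). Leaving out sgCtrl replicate 2 (-0.12, adjusted p = 0.279), sgCtrl replicate 3 (-0.16, 0.105), sgN6AMT1 replicate 2 (-0.17, 0.128) or sgN6AMT1 replicate 3 (-0.11, 0.246) left it short of the edgeR threshold. With total counts as the scale it was -0.11 (adjusted p = 0.202). SMC4, the partner ATPase of SMC2, had a log2 fold change of -0.09 (95% interval -0.20 to 0.03, adjusted p = 0.283), and NCAPH, the subunit that bridges the ATPases, one of -0.09 (-0.26 to 0.08, 0.496).

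Within condensin I the levels per coding length were unequal. In sgCtrl, SMC4 and NCAPG stood highest, at 99.4 ± 5.46 and 97.4 ± 7.37 CPM per kilobase of CDS (SD, n = 3), a difference within their spread. NCAPH was at 53.6 ± 4.72 and NCAPD2 at 50.1 ± 1.14, also within their spread. SMC2 was lowest, at 40.0 ± 0.581. In sgN6AMT1 the order of the levels was SMC4 at 93.6 ± 4.75, NCAPG at 86.8 ± 7.72, NCAPH at 50.8 ± 1.24, NCAPD2 at 40.2 ± 3.07 and SMC2 at 33.0 ± 2.29.

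**Figure D3:**
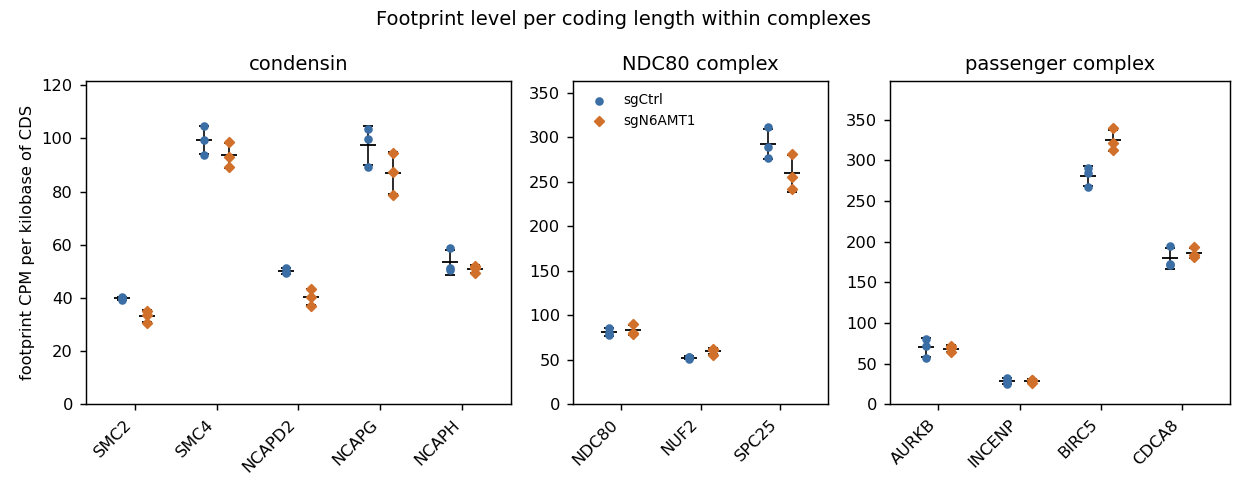
Footprint CPM per kilobase of CDS for the members of condensin, the NDC80 complex and the chromosomal passenger complex, with 1 point per library and bars for mean ± SD of 3 libraries. Blue circles are sgCtrl and orange diamonds sgN6AMT1. SMC2, NCAPD2 and BIRC5 show no overlap of the groups among the members past the threshold, and levels differ severalfold between members of a complex.

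Of the 6 centromere and kinetochore members tested, 2 fell (33.3%) and none rose, where 13.9% of all genes were lower and 12.9% higher. CENPE, the kinetochore motor that carries chromosomes to the spindle equator (chr4:103105811-103198343, minus strand), had 102, 112 and 96.1 CPM in sgCtrl and 77.6, 82.1 and 71.7 CPM in sgN6AMT1. CENPF, a large coiled-coil protein of the outer kinetochore (chr1:214603195-214664571, plus strand), had 308, 314 and 268 CPM in sgCtrl and 243, 247 and 262 CPM in sgN6AMT1. The groups were well apart for CENPE, and for CENPF the nearest libraries almost touched. CENPE fell by 0.43 (SE 0.098, adjusted p = 0.000323) and CENPF by 0.25 (SE 0.064, adjusted p = 0.00126). With the trends of fold change on CDS length and GC content removed, CENPF had -0.10 (adjusted p = 0.183).

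The NDC80 complex, which binds microtubules, gave no member past the threshold. NDC80 had a log2 fold change of 0.03 (adjusted p = 0.816). NUF2, its partner, had 70.3, 74.1 and 74.4 CPM in sgCtrl and 86.3, 85.5 and 77.6 CPM in sgN6AMT1. These did not overlap, but the log2 fold change of 0.19 (95% interval -0.02 to 0.40) had an adjusted p of 0.176. It was 0.24 (adjusted p = 0.0451) with the length and GC trends removed. SPC25, of the inner end of the complex, had a log2 fold change of -0.17 (adjusted p = 0.0735), which in edgeR ranged from -0.24 (0.0202) without sgN6AMT1 replicate 1 to -0.13 (0.245) without sgN6AMT1 replicate 3. It also passed without sgCtrl replicate 1 (-0.20, adjusted p = 0.049), and was -0.11 (0.254) with total counts as the scale. Per kilobase of CDS in sgCtrl, SPC25 was at 292 ± 16.7 CPM, NDC80 at 81.2 ± 4.34 and NUF2 at 52.3 ± 1.64 (SD, n = 3). In sgN6AMT1 they were at 259 ± 20.7, 83.2 ± 5.91 and 59.6 ± 3.45.

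CENPA, the histone variant that marks the centromere, had few counts. Its 17.6, 15.9 and 16.3 CPM in sgCtrl lay between the lowest sgN6AMT1 library, at 12.3 CPM, and the other two, at 28.9 and 26.6 CPM. The log2 fold change was 0.44 (SE 0.206, adjusted p = 0.105). In edgeR it was 0.76 (adjusted p = 0.00231) without sgN6AMT1 replicate 1, 0.19 (0.644) without sgN6AMT1 replicate 2 and 0.32 (0.323) without sgN6AMT1 replicate 3.

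In the spindle checkpoint, 1 of 5 members fell (20.0%, beside 13.9% of all genes) and none rose. BUB1, the kinase that recruits checkpoint proteins and shugoshin to kinetochores (chr2:110637528-110678063, minus strand), had 223, 241 and 233 CPM in sgCtrl and 195, 204 and 189 CPM in sgN6AMT1. All sgN6AMT1 libraries were below all sgCtrl libraries. BUB1 fell by 0.24 (SE 0.067, 95% interval -0.38 to -0.11, adjusted p = 0.00324). Its binding partner BUB3 had a log2 fold change of 0.07 (adjusted p = 0.437). BUB1B and MAD2L1, subunits of the complex that inhibits CDC20, had 0.01 (adjusted p = 0.924) and 0.02 (0.895). TTK, the kinase at the top of the checkpoint, had -0.10 (adjusted p = 0.511).

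In the chromosomal passenger complex, 1 of 4 members rose (25.0%, beside 12.9% of all genes) and none fell. BIRC5, the survivin subunit that docks the complex on centromeric histone H3 (chr17:78214186-78225636, plus strand), had 145, 133 and 142 CPM in sgCtrl and 156, 169 and 160 CPM in sgN6AMT1. The groups did not overlap. BIRC5 rose by 0.21 (SE 0.078, 95% interval 0.06 to 0.37, adjusted p = 0.0294). It did not pass in edgeR without sgCtrl replicate 2 (0.17, adjusted p = 0.172), without sgCtrl replicate 3 (0.23, 0.0502) or without sgN6AMT1 replicate 2 (0.18, 0.164). Nor did BIRC5 pass in DESeq2 (0.20, adjusted p = 0.206), without the filter on low counts (0.20, 0.0536 in edgeR) or with the length and GC trends removed (0.14, 0.119). AURKB, the kinase of the complex (chr17:8204733-8210582, minus strand), had 74.3, 59.6 and 83.8 CPM in sgCtrl and 71.9, 74.7 and 66.2 CPM in sgN6AMT1. The sgN6AMT1 values lay inside the sgCtrl range. Its log2 fold change was -0.01 (95% interval -0.23 to 0.21, adjusted p = 0.975). The scaffold INCENP had 0.03 (adjusted p = 0.89) and the borealin subunit CDCA8 0.06 (0.601).

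Per kilobase of CDS in sgCtrl, BIRC5 was at 281 ± 12.4 CPM, CDCA8 at 179 ± 13.4, AURKB at 69.9 ± 11.7 and INCENP at 28.6 ± 3.25 (SD, n = 3). These neighbours were further apart than their spread. In sgN6AMT1 the order was the same, with BIRC5 at 325 ± 12.8, CDCA8 at 187 ± 6.55, AURKB at 68.4 ± 4.17 and INCENP at 29.1 ± 2.14.

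No spindle or centriole kinase and no spindle motor passed the threshold, which 26.9% of all genes passed. PLK1, the polo kinase needed for spindle assembly and cytokinesis (chr16:23678889-23690367, plus strand), had 327, 322 and 329 CPM in sgCtrl and 323, 309 and 313 CPM in sgN6AMT1. Its log2 fold change was -0.05 (95% interval -0.17 to 0.07, adjusted p = 0.603). AURKA, the spindle pole kinase (chr20:56369389-56392295, minus strand), had 161, 163 and 178 CPM in sgCtrl and 166, 171 and 158 CPM in sgN6AMT1. These overlapped, with a log2 fold change of -0.02 (95% interval -0.17 to 0.13, adjusted p = 0.892). TPX2, which activates AURKA, had -0.04 (adjusted p = 0.679), and PLK4, the kinase of centriole duplication, -0.23 (0.422) on low counts. The 5 kinesins KIF11, KIF2C, KIF18A, KIF20A and KIF23 and the midzone protein PRC1 had log2 fold changes between -0.11 and 0.01. With total counts as the scale PLK1, AURKA, TPX2, KIF11 and KIF2C changed sign, and none of them passed.

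FOXM1, the transcription factor that activates many mitotic genes (chr12:2857683-2876986, minus strand), was near the lower end of the members' levels. It had 19.1, 16.5 and 19.7 CPM in sgCtrl and 18.0, 22.9 and 18.5 CPM in sgN6AMT1, with overlapping groups. The log2 fold change was 0.12 (SE 0.191, 95% interval -0.26 to 0.50, adjusted p = 0.691), so changes within this interval could not be told from none at this depth.

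The members with long coding sequences were those with fewer footprints. CDS lengths could be assigned to 41 of the tested members. Of the 11 members with a CDS of at least 3000 bases, 8 fell (72.7%) and none rose, and their median log2 fold change was -0.25. The 8 were CENPF (9345 bases), CENPE (8106), ESPL1 (6363), TOP2A (4596), NCAPD2 (4206), SMC2 (3594), BUB1 (3258) and NCAPG (3048). The other 3, SMC4 (3867), BUB1B (3195) and KIF11 (3171), did not pass the threshold. Of the 16 members between 1500 and 3000 bases none fell and 1 rose, with a median of -0.04. Of the 14 members under 1500 bases none fell and 3 rose, with a median of 0.07, among them CDK1 (894), PTTG1 (609) and BIRC5 (498). The length limits were chosen after the values were seen.

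The same order by length was present, to a smaller extent, among all genes tested. There, 18.9% of the 1186 genes of at least 3000 bases were lower and 8.26% higher, with a median log2 fold change of -0.08. Of the 2733 genes between 1500 and 3000 bases, 14.2% were lower and 11.3% higher, with a median of -0.01. Of the 4688 genes under 1500 bases, 12.3% were lower and 15.0% higher, with a median of 0.04. Spearman's correlation across genes between log2 fold change and CDS length was -0.70 over the 41 members and -0.13 over 8607 genes. Genes in such a correlation are not independent replicates and share the same 6 libraries, so the values are descriptive. After the trends of fold change on CDS length and GC content over all genes were removed, the correlation over the members was -0.54. Under that setting 10 of 41 members (24.4%) passed the threshold, 6 of them lower and 4 higher, beside 28.9% of 8607 genes. Of the 11 long members 5 then fell (45.5%), beside 166 of the 1186 genes of that length, since CENPF, SMC2 and NCAPG no longer passed. CCNB1, with 1302 bases, was the other lower member. In DESeq2 6 of the 11 long members fell (54.5%), beside 122 of the 1343 genes of that length it covered (9.08%). The part of fragment size, nuclease digestion and mRNA abundance in the relation to length was not tested.

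**Figure D4:**
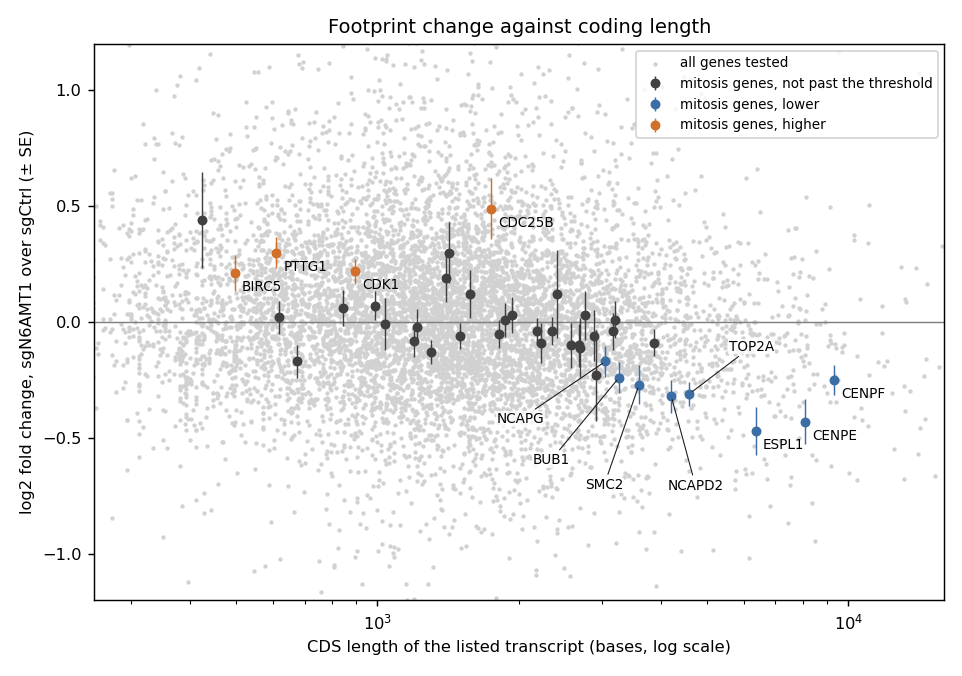
Log2 fold change of footprints, sgN6AMT1 over sgCtrl, against CDS length in bases on a log axis. Grey points are the 8607 genes with a CDS length, of which 263 lie outside the plotted range, and large points are the 41 mitosis genes with their SE, blue where lower, orange where higher and black where not past the threshold. All 8 blue points lie at 3000 bases or more, and the orange points lie to the left of them.

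Over the 41 members with a CDS length, those past the threshold were also unequally spread by stop codon. Of 12 members ending in TAA 4 fell and 1 rose, and of 7 ending in TAG 3 fell and 1 rose. Of 22 ending in TGA 1 fell and 2 rose. The median log2 fold changes were -0.12, -0.08 and 0.02. The TAA and TAG members had longer coding sequences, with medians of 2685 and 2406 bases against 1803 for TGA members, so stop codon and length moved together in this set. Over all genes tested, 16.3% of TAA, 13.4% of TAG and 12.5% of TGA genes were lower. In the same order 13.2%, 14.1% and 12.3% were higher, with medians of -0.01, 0.03 and 0.01. In the wider list of other mitosis genes described below, 19.0% of TAA, 11.5% of TAG and 16.3% of TGA genes were lower. There 4.76%, 19.2% and 10.2% were higher, and the medians were -0.02, -0.05 and -0.06, so the members' order by stop codon was not repeated.

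Many mitotic promoters carry the cell cycle homology region (CHR), a short element bound by the complexes that repress these genes in resting cells and activate them before division. It was searched as TTTGAA or TTCGAA on both strands in RefSeq promoters of GRCh38.p14, from 250 bases before to 50 after each start. Promoters were found for 36 of the tested members. The motif was present in 27 of these 36 genes (75.0%), against 19.5% of 27305 genes. TTTGAA on the gene's own strand in the 50 bases before the start was present in 12 of the 36 (33.3%), against 1.52% of all genes. Its first base lay 10 to 35 bases before the start. The 30-base windows below show the motif in capitals for 3 members past the threshold and 3 that were not, on the gene's strand.
CDK1, chr10:60778447-60778476, plus strand: gccctttagcgcggtgagTTTGAAactgct
ESPL1, chr12:53268250-53268279, plus strand: gattggcagccgcggataTTTGAAaggagg
NCAPG, chr4:17810926-17810955, plus strand: cccctctcgcgggaattaTTTGAAcgttcg
PLK1, chr16:23678842-23678871, plus strand: aacgttcccagcgccgcgTTTGAAttcggg
CCNB2, chr15:59105099-59105128, plus strand: ggcgcaagcgacgcggtaTTTGAAtcctgg
CDCA8, chr1:37692475-37692504, plus strand: cagcctgtgactgtggagTTTGAAttgggt

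The members with this motif near the start included genes that rose, fell and did neither. Of the 12, CDK1 rose, ESPL1 and NCAPG fell and 9 did not pass the threshold, with a median log2 fold change of 0.01. Of the 24 members without it, 6 fell and 3 rose, with a median of -0.07. Beside these, 13.9% of all genes tested were lower and 12.9% higher. A match is a run of letters and no measurement of binding, and no match says only that the letters are not in this window.

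A wider list of 122 other mitosis genes, with cohesin, APC/C subunits, further kinetochore and centromere proteins and cytokinesis factors, gave a share of calls close to the background. Of the 120 that were tested, 32 passed the threshold (26.7%), 20 lower and 12 higher, and the median log2 fold change was -0.04. With total counts as the scale 13 were lower and 16 higher, with a median of 0.01, and with length and GC trends removed 17 were lower and 16 higher. Among genes whose groups did not overlap and whose mean reached 10 CPM, the largest falls were on centromere and kinetochore proteins and a condensin II subunit. CENPN, which reads the centromeric nucleosome, went from 35.8 ± 0.916 to 19.5 ± 1.15 CPM (SD, n = 3) and fell by 0.88 on the log2 scale (adjusted p = 5.7e-06). NCAPH2, the condensin II counterpart of NCAPH, fell by 0.82 (adjusted p = 4.55e-07). MIS18A, a loading factor for CENPA, fell by 0.61, KNTC1, a checkpoint protein of the kinetochore, by 0.59 and CENPW, a histone-fold protein of the centromere, by 0.58. MIS18A lies on the same chromosome as N6AMT1 (chr21:32268228-32279049, minus strand), and the part of this location in its fall was not tested.

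Under the same limits the largest rises were on SKA1, a microtubule-binding protein of the kinetochore, and CEP55, a scaffold of the final cut between daughter cells. Below 10 CPM, NEK6 (1.13, adjusted p = 0.0326) and LIN52 (1.00, 0.00514) rose more, on 4 to 27 counts a library. SKA1 went from 29.0 ± 2.1 to 52.8 ± 3.24 CPM (SD, n = 3) and rose by 0.85 (adjusted p = 1.47e-07). CEP55 went from 14.5 ± 1.67 to 25.3 ± 6.87 CPM and rose by 0.84 (adjusted p = 0.000422). PBK, a mitotic kinase, rose by 0.54 (adjusted p = 4.96e-09), LIN54, the DNA-binding subunit of the complex that recognises the CHR, by 0.51 (0.0489) and the centromere protein CENPK by 0.43 (0.0396). LIN54 and CENPK did not pass in DESeq2 (adjusted p = 0.322 and 0.26). In this list 7 of 30 genes with a CDS of at least 3000 bases fell (23.3%, beside 18.9% of all such genes) and none rose. Of 45 under 1500 bases 5 fell (11.1%, beside 12.3%) and 11 rose (24.4%, beside 15.0%).

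The 9 erythroid markers expected of K562 were all detected, and 6 of them passed the threshold (66.7%, beside 26.9% of all genes). GATA1 (-0.29), KLF1 (-0.37), HBZ (-0.27) and TFRC (-0.33) fell, and HBE1 (0.48) and TAL1 (0.48) rose. Their summed level was 27300 to 28800 CPM in sgCtrl and 27700 to 28600 CPM in sgN6AMT1, most of it HBG1 and HBG2, at 9550 and 9920 CPM in sgCtrl, which did not pass. The summed level of 9 markers of megakaryocytes, a fate K562 cells can enter, was 45.4 to 53.7 CPM in sgCtrl and 19.0 to 23.8 CPM in sgN6AMT1. Of the 4 tested, ITGA2B, GP6 and TUBB1 fell (75.0%, beside 13.9% of all genes), on only 5 to 56 counts a library. The fourth, ITGB3, did not pass (-0.08, adjusted p = 0.908), while GP1BA, PF4 and VWF were at 0 in all libraries. Of 8 markers of other cell types 2 could be tested and neither passed the threshold, and their summed level was 171 to 202 and 186 to 210 CPM. The part of these markers in the changes of the mitosis genes was not tested.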

How the data were processed

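Footprint counts per gene were deposited by the authors as whole numbers, neither normalized nor pooled, in 1 table for 3 sgCtrl and 3 sgN6AMT1 libraries. The authors trimmed reads with cutadapt, kept footprint lengths, removed rRNA and tRNA reads after mapping to GRCh38 with HISAT2, mapped the rest to canonical transcripts with bowtie2 and placed P-sites with riboWaltz. Counts were made from P-sites on the CDS and, for DESeq2, from overlap with a gene annotation, and which of them the table holds is not stated. No molecular identifiers are described, so duplicates of a fragment were counted. P-values measure the spread between the 3 transductions of a group.

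The main test was that of edgeR 4.0.16 (R 4.3.3; TMM factors, filterByExpr with a minimum of 10 counts, robust quasi-likelihood F test, 2-sided, Benjamini-Hochberg). The filter left 9202 genes and removed 10128, which held 0.465% of counts. The common biological coefficient of variation was 4.36%. The SE was derived from the F statistic. Alternatives were DESeq2 1.42.0, limma-voom (limma 3.58.1), other scalings and filters, removal of length and GC trends (loess, span 0.5), a replicate block and leaving out each library, 15 in all. The edgeR steps were tested on simulated counts.

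Transcripts were matched by identifier to GENCODE release 44 on GRCh38, the authors' build with another annotation, which placed 17687 of 19330 (91.5%). The listed transcript of CCNA2 was not matched. Promoter sequences were from RefSeq. AURKA, TPX2, BIRC5, BUB3, TTK and FOXM1 had no entry there.

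All members may be named, with library values for those past the threshold and for CDK1, CCNB1, PLK1, AURKA, AURKB and FOXM1. Of the other mitosis genes, those named are the 5 largest rises and 5 largest falls that passed, where groups did not overlap and the mean reached 10 CPM. NUF2, CENPA and the ratios were given in more detail after their values were seen. Members, lists and tests were chosen with earlier results of these data known.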

Additional observations from a re-analysis of the deposited data

How the results depend on the processing

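Of the 13 members past the threshold, 7 passed it in all 15 alternatives (CDK1, BUB1, PTTG1, ESPL1, CENPE, NCAPD2 and TOP2A), and none of the 13 changed sign in an alternative that gave it a value. DESeq2 called 8 members, 2 of them higher, 16 other mitosis genes and 1329 genes in all, against 13, 5, 32 and 2473 in edgeR. Leaving out each library in turn gave 3 to 5 higher members, with 3 without sgCtrl replicate 2 or sgN6AMT1 replicate 2. Over all genes tested, the higher ones also became fewer there. They went from 1191 of 9202 to 945 of 9335 without sgCtrl replicate 2 and 906 of 9277 without sgN6AMT1 replicate 2. The members' median log2 fold change was 0.015 with total counts as the scale, which also moved the median of all genes from 0.006 to 0.061, and -0.003 with the length and GC trends removed. The cause of these shifts was not tested.

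Of the 29 members not past the threshold, 16 changed sign in at least 1 alternative. With total counts PLK1 was 0.0068, AURKA 0.0369, TPX2 0.015, AURKB 0.0471, KIF11 0.0161 and KIF2C 0.0145. With a mean of at least 50 counts AURKA was 0.00802 and AURKB 0.0165, and AURKB was 0.00471 with upper-quartile factors and 0.0127 in limma-voom. With trends removed KIF11 was 0.0524, KIF23 0.00668 and SMC4 0.0243. Leave-one-out values ran from -0.0464 to 0.021 for AURKA, -0.154 to 0.105 for AURKB, -0.0465 to 0.0992 for INCENP, -0.0503 to 0.0625 for BUB1B, -0.0688 to 0.0887 for MAD2L1, -0.033 to 0.0777 for NDC80, -0.104 to 0.045 for KIF11, -0.216 to 0.148 for KIF18A, -0.175 to 0.00162 for KIF20A, -0.0236 to 0.0352 for PRC1 and -0.00587 to 0.192 for FOXM1. Directions of these genes were not settled across the alternatives, and the cause of the sign changes was not tested.

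Same-numbered libraries deviated from their group means with correlations of -0.138, 0.036 and 0.003 over 5874 genes, and differently numbered ones with -0.14 to 0.138. Deviations were centred within groups of 3 libraries, so these values cannot show whether the transductions were handled in matched pairs. With the replicate block, 2390 genes, 11 members (7 lower, 4 higher) and 31 other mitosis genes passed, with a member median of -0.04. CCNA2 (adjusted p = 0.0523) and NCAPG (0.063) were the called members that did not pass under the block in edgeR.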
